A study of Drosophila melanogaster with 30 samples.

Results

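Gene expression was compared among lines of Drosophila melanogaster that had been bred apart under the same treatment, in order to find the genes that differed most between such lines. The comparison used all 30 libraries of the series, which come from 15 lines, 3 in each of 5 treatments, with 2 libraries per line. No measured difference between lines was used to choose the genes that were tested. The genes named below were picked from them mostly by the p-values of these tests, and the gene lists were chosen with earlier results of these data known. Every gene with at least 1 CPM (count scaled to the size of its library) in at least 15 of the 30 libraries was tested, which gave 9240 genes of the 17471 in the files. A gene that was high in few lines and silent in the rest did not pass this minimum and was not tested.

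All lines descended from an outbred population made by intercrossing inbred lines of the Drosophila Genetic Reference Panel. In the BUT+ and BUT- treatments flies were bred for a positive or a negative behavioral response to 2,3-butanedione (BUT), a ketone of fermenting fruit, and in the CYC+ and CYC- treatments for a positive or a negative response to cyclohexanone (CYC), another ketone. Lines 1, 2 and 3 of the control treatment were bred without odor selection, and the same control lines serve both odors. All 5 treatments were bred for the same number of generations. Each library was made from pooled whole heads of young adult females, and the samples of a line are separate pools, numbered 1 and 2. No genotype, transgene or drug separated the groups, so each comparison below is between 2 or 3 populations that share a treatment and differ in their ancestry since founding. A line is 1 population, and with 2 pools per line the p-values measure the spread between pools and not between flies.

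Lines kept apart each carry a sample of the alleles of the population they came from. In small populations the frequencies of those alleles change by chance (genetic drift) as well as by selection, so replicate lines are the usual yardstick for what breeding apart does on its own. Much of the inherited variation in expression in D. melanogaster lies close to the gene it affects, as a deletion, a duplication, a mobile element insertion or a change in a promoter or enhancer, and such a variant can also alter the genes beside it.

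Total counts ranged from 21194086 to 38621924 per library, with a median of 29967406, so that 1 CPM was 21.2 counts in the smallest library and 38.6 in the largest. The tissue label was met in all libraries: photoreceptor markers summed to between 51900 and 74700 CPM and antennal markers to between 1810 and 2660 CPM. Male markers summed to at most 5.65 CPM, and Mst84Dc among them was at 0 in all. RNA of organs outside the head was low and uneven between libraries. Midgut markers summed to between 9.88 and 438 CPM and ovarian follicle markers to between 0.668 and 28.6 CPM. The first sample of CYC+ line 1 stood apart: its neuronal markers summed to 1550 CPM, against 2280 to 2530 in the other 5 CYC+ libraries, and its 83 ribosomal protein genes to 108000 CPM, against at most 89600 in the other 29 libraries. The root mean square log2 distance between the samples of that line was 0.507, the widest of the 15 lines (0.216 to 0.507). The counts per treatment, per pair of lines and for several gene lists are also given without that library, a choice made after the data were seen. The spans, widest gaps, shared calls and positions rest on all 30 libraries.

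The lines of every treatment differed. At an adjusted p under 0.1 (quasi-likelihood F test of edgeR, p-values adjusted over all genes tested, sample number as a block), 192 genes differed among the 3 BUT+ lines (2.08% of genes tested), 496 among the BUT- lines (5.37%), 712 among the CYC+ lines (7.71%), 397 among the CYC- lines (4.3%) and 318 among the control lines (3.44%). The control lines, which were never selected for an odor response, thus held called genes too. A single test over the 10 differences within all treatments called 1171 genes (12.7%). The order of the treatments was not stable to leaving out single libraries or to the estimate of spread. Without the first sample of CYC+ line 1 the counts were 291 in BUT+, 838 in BUT-, 452 in CYC+, 545 in CYC- and, for the control, 605, and 1551 over all treatments (16.8%), so that CYC+ was no longer the treatment with the most. That fit called again every one of the 192, 496, 397 and 318 genes of the other treatments, but only 355 of the 712 in CYC+. Without the second sample of the same line, the CYC+ count was 3179. Without the second sample of BUT- line 1 the BUT- count was 181 against 192 in BUT+, without the first sample of CYC+ line 3 CYC+ had 391 against 473 in BUT-, and without the first sample of CYC- line 1 CYC- had 209 against 308 in the control. The control fell below BUT+ without the first sample of control line 1 (185 against 191), the second of line 1 (149 against 190) or the second of line 3 (172 against 195). Fits of each treatment's own 6 libraries gave 1229 genes in BUT+, 1115 in BUT-, 196 in CYC+, 589 in CYC- and 80 among the control lines. Counts of treatments were not tested against each other.

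Most called differences were moderate. The span from the lowest to the highest line had a median of 0.85 on the log2 scale among the genes called in BUT+, 0.65 in BUT-, 0.58 in CYC+, 0.64 in CYC-, and in control 0.62. Over all 9240 genes the median span was between 0.16 and 0.20. Spans of at least 1 were found in 71 called genes of BUT+, 122 of BUT-, 143 of CYC+, 96 of CYC- and 70 of the control. Spans of at least 3 were found in 4, 10, 9, 5 and 5 genes, in the same order.

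In BUT+ line 1 stood apart from lines 2 and 3. It was counted as holding the widest gap in 146 of the 192 called genes, meaning that both of its libraries lay above or below the other 4. Where 2 lines were clear in this way, the line farther from the middle line by fitted means was counted. A counted line was therefore not always the farther one. Line 2 was counted in 14 genes and line 3 in 32. The tests of single pairs gave the same picture. Lines 1 and 2 differed in 126 genes (1.36%), lines 1 and 3 in 232 (2.51%), and lines 2 and 3 in only 6 (0.0649%; 571 genes had an unadjusted p under 0.05).

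In BUT- too, line 1 was farthest from its companions with all libraries in. It held the widest gap in 308 of 496 called genes, line 2 in 90 and line 3 in 95, and in 3 genes no line was clear of the other 4 libraries. Pairs gave 401 genes for lines 1 and 2 (4.34%), 426 for lines 1 and 3 (4.61%) and 86 for lines 2 and 3 (0.931%). These counts rested in part on the second sample of line 1. Its neuronal markers summed to 2860 CPM against 1950 to 2260 in the other BUT- libraries, and its head fat body markers to 27300 CPM against 53300 to 86200. Without it the BUT- count was 181, and the pairs differed in 119, 103 and 85 genes. The part of fat body and neuronal RNA in the difference was not tested.

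In the remaining treatments the widest gaps were divided more evenly. In CYC+ lines 1, 2 and 3 held the widest gap in 281, 149 and 224 genes, and 58 genes had no line clear of the others. The pairs of CYC+ differed in 335 genes (lines 1 and 2, 3.63%), 662 genes (lines 1 and 3, 7.16%) and 186 genes (lines 2 and 3, 2.01%). Without the first sample of CYC+ line 1, which is in the first 2 of these pairs, they differed in 141, 317 and 267 genes. The same fit gave 580, 944 and 113 genes for the pairs of BUT-, 199, 295 and 12 for those of BUT+, 349, 393 and 246 for those of CYC-, and 347, 431 and 223 for those of the control, in the order of lines 1 and 2, 1 and 3, and 2 and 3. In CYC- the widest gap lay with lines 1, 2 and 3 in 155, 110 and 113 genes. Its pairs differed in 243 genes (lines 1 and 2, 2.63%), 251 genes (lines 1 and 3, 2.72%) and 202 genes (lines 2 and 3, 2.19%). In the control it lay with lines 1, 2 and 3 in 139, 107 and 72 genes. Control lines 1 and 2 differed in 225 genes (2.44%), lines 1 and 3 in 149 (1.61%) and lines 2 and 3 in 130 (1.41%).

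**Figure D1:**
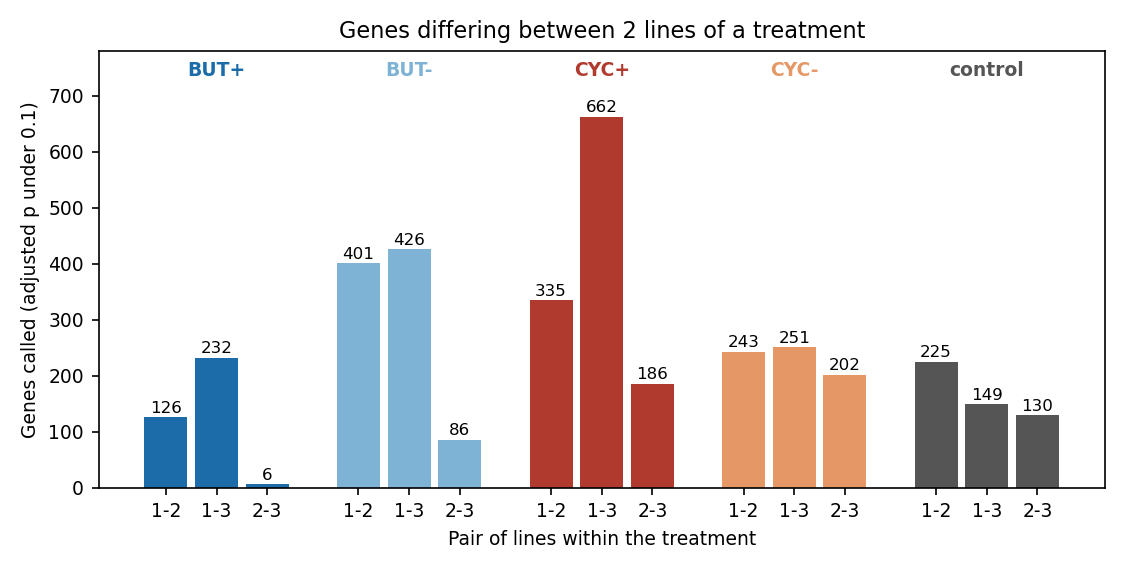
Number of genes called between each pair of lines, at an adjusted p under 0.1, for the 5 treatments (x axis, pair of line numbers; y axis, genes of 9240 tested). The lowest bar is the pair of BUT+ lines 2 and 3 with 6 genes and the highest is CYC+ lines 1 and 3 with 662, which is 317 without the first sample of CYC+ line 1.

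The differences recurred in the separate pools to unequal degrees. Across the 9240 genes, the log2 difference between 2 lines in their first samples had a Pearson r with that in their second samples of between 0.185 (control lines 2 and 3) and 0.662 (CYC- lines 1 and 2); genes are not independent replicates, and these values are descriptions. In BUT+ the libraries of a line were 0.241 to 0.242 apart and libraries of different lines 0.278 to 0.34 apart (root mean square log2 distance). In CYC+ and CYC- the libraries of a line were as far apart (0.4 to 0.507) as libraries of different lines (0.419 to 0.465). Libraries of a line always differ in sample number, whereas some pairs of libraries of different lines share it. The change from first to second sample was alike among lines of CYC+ and of CYC- (Pearson r of 0.493 to 0.738). It enters the distance within a line in full, so these distances cannot show whether lines differ more than pools. The test uses 1 spread per gene over all 30 libraries. With the spread taken from the 6 CYC+ libraries alone, 158 of the 712 CYC+ calls were made again.

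sordd2 had the widest span of the called genes of any treatment. It lies on the X chromosome at 15796908 to 15799162 of the release 6 genome. Its level in BUT+ was 0.0734 and 0.0722 CPM in line 1, 36.3 and 46.1 in line 2 and 80.1 and 71.9 in line 3. Both libraries of line 1 held 2 counts each, so the gene was close to undetected in that line and plainly expressed in its companions. The pooled counts gave a ratio of line 3 to line 1 of 1040 with an exact 95% counting interval of 407 to 3820, and the fitted difference was 9.95 on the log2 scale (SE 0.34, adjusted p = 7.07e-12 among the 3 lines, edgeR).
In CYC- the gene was again nearly silent in 1 line. Its levels were 63.7 and 54.6 CPM in line 1, 70.3 and 66.9 in line 2, and 0.518 and 0.103 in line 3, where the libraries held 15 and 4 counts. The difference between lines 2 and 3 was 7.90 (log2, SE 0.28, adjusted p = 8.3e-12 among the lines, edgeR). In the 9 lines of BUT-, CYC+ and the control the level was between 43.6 and 76.1 CPM, and of these treatments only CYC+ was called (span 0.63, adjusted p = 0.077, edgeR).

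The genes on either side of sordd2 varied with it. CR44383, annotated as a pseudogene at 15796477 to 15796897, was at 0.11 and 0.0361 CPM in BUT+ line 1 and 0.832 to 1.84 CPM in BUT+ lines 2 and 3. It was at 0.104 and 0.0514 CPM in CYC- line 3 and 1.21 to 1.69 CPM in CYC- lines 1 and 2. Its log2 line means, each taken from the mean of its treatment, had a Pearson r of 0.97 with those of sordd2 over the 15 lines; every r between a pair of genes below is of this kind, a description with no test. CG15602, on the other side, had an r of 0.90 and was called over all treatments (adjusted p = 0.0578, edgeR) and in CYC- (adjusted p = 0.0406, edgeR). sordd1, the neighbour beyond the pseudogene, was not called (adjusted p = 0.437 over all treatments, edgeR). How reads that match several genes were counted is not given in the sources used here, so the values of the pseudogene carry that doubt.

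Hsc70-2, a cognate of the Hsp70 heat shock chaperones (3R, 13044759 to 13047388), differed among the lines of 4 treatments and reached very different levels in each. In BUT- it was at 1.26 and 1.78 CPM in line 1, 23.7 and 23.3 in line 2 and 25.4 and 26 in line 3. Line 1 lay far below both companions (4.08 on the log2 scale below line 3, SE 0.16, adjusted p = 3.89e-11, edgeR). In the control the levels were 1.66 and 1.3 CPM in line 1, 18 and 12.4 in line 2, and 10.6 and 11 in line 3 (span 3.36, SE 0.16, adjusted p = 2.3e-09, edgeR). Line 1 was again the low line. In BUT+ the order was turned, with 25 and 26.6 CPM in line 1, 9.15 and 8.91 in line 2, and 7.02 and 7.27 in line 3 (span 1.85, SE 0.14, adjusted p = 1.45e-07, edgeR). In CYC- the 3 lines were fully separate, at 19.1 and 18.3, 5.01 and 5.46, and 27.9 and 27.6 CPM (span 2.41, SE 0.14, adjusted p = 2.44e-08, edgeR). All 3 CYC+ lines sat at the low level, between 1.42 and 1.76 CPM, and did not pass the test (span 0.24, adjusted p = 0.689, edgeR).
CG31157, the next gene along the chromosome, showed the same pattern (r = 0.98 over the 15 lines). It ranged from 0.0387 CPM in a CYC+ library to 7.32 CPM in a library of CYC- line 3. In BUT- it was at 0.301 and 0.315 CPM in line 1, 5.1 and 6.33 in line 2, and 6.73 and 6.17 in line 3 (span 4.37, SE 0.27, adjusted p = 4.03e-08, edgeR). In the control its line 1 held 3 and 8 counts, and the ratio of line 2 to line 1 was 16.9 with a 95% counting interval of 9.25 to 34.5. CG7966, which follows CG31157, was called in 3 treatments and had an r of 0.90 with it, while CG11668 on the other side of Hsc70-2 ran the opposite way (r = -0.62).

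otu encodes a deubiquitinating enzyme needed for oogenesis in the fly (ovarian tumor; X, 8485008 to 8489535). Its level in these heads ranged from 0.209 to 62.4 CPM. In CYC+ it was at 51.8 and 54.5 CPM in line 1, 7.36 and 7.62 in line 2, and 0.53 and 0.209 in line 3. Each line had its own level, and the span was 7.24 (log2, SE 0.38, adjusted p = 1.44e-09, edgeR). In BUT- it was at 15.6 and 20.2 CPM in line 1, 0.844 and 0.28 in line 2, and 25.8 and 25.3 in line 3 (span 5.60, SE 0.36, adjusted p = 6.61e-08, edgeR). Spans in BUT+ (2.40) and CYC- (2.33) also passed the test. The control lines were at 34.7 to 62.4 CPM and did not pass (span 0.54, SE 0.24, adjusted p = 0.429, edgeR).
Ovarian follicle markers were measured beside it. None of the 10 markers passed the expression minimum. Their summed level was 1.98, 2 and 1.06 CPM in CYC+ lines 1, 2 and 3, where otu fell from line to line, and the highest sum, 28.6 CPM, was in the first sample of BUT+ line 1, where otu was at 6.35 CPM. Their part in the otu differences was not tested.

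Cyp6a23, a cytochrome P450 of a gene cluster on 2R (14875829 to 14877654), was called in 4 treatments. In CYC+ it was at 267 and 213 CPM in line 1, 35.9 and 25.3 in line 2, and 286 and 275 in line 3. Line 2 was low, and the span was 3.20 (log2, SE 0.16, adjusted p = 1.44e-09, edgeR). In CYC- it was at 20.8 and 20.2 CPM in line 1, 64.6 and 62 in line 2, and 127 and 105 in line 3 (span 2.50, SE 0.15, adjusted p = 6.18e-08, edgeR). In BUT- line 2 was the high line, at 58.7 and 67.1 CPM against 15.8 to 23.6 in lines 1 and 3 (span 1.88, SE 0.15, adjusted p = 4.9e-07, edgeR). The control lines lay between 91 and 171 CPM, and their smaller span of 0.79 also passed (adjusted p = 0.0139, edgeR). The BUT+ lines, at 18.9 to 33.1 CPM, did not (adjusted p = 0.12, edgeR).
The genes beside it in the cluster ran the other way. Cyp6a9 had an r of -0.90 with Cyp6a23 over the 15 lines and was called in CYC+ (adjusted p = 1.68e-05, edgeR), and Cyp6a17 had an r of -0.81 and was not called (adjusted p = 0.177 over all treatments, edgeR). These are close paralogs, and reads that match more than 1 of them may have been divided between them or dropped.

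**Figure D2:**
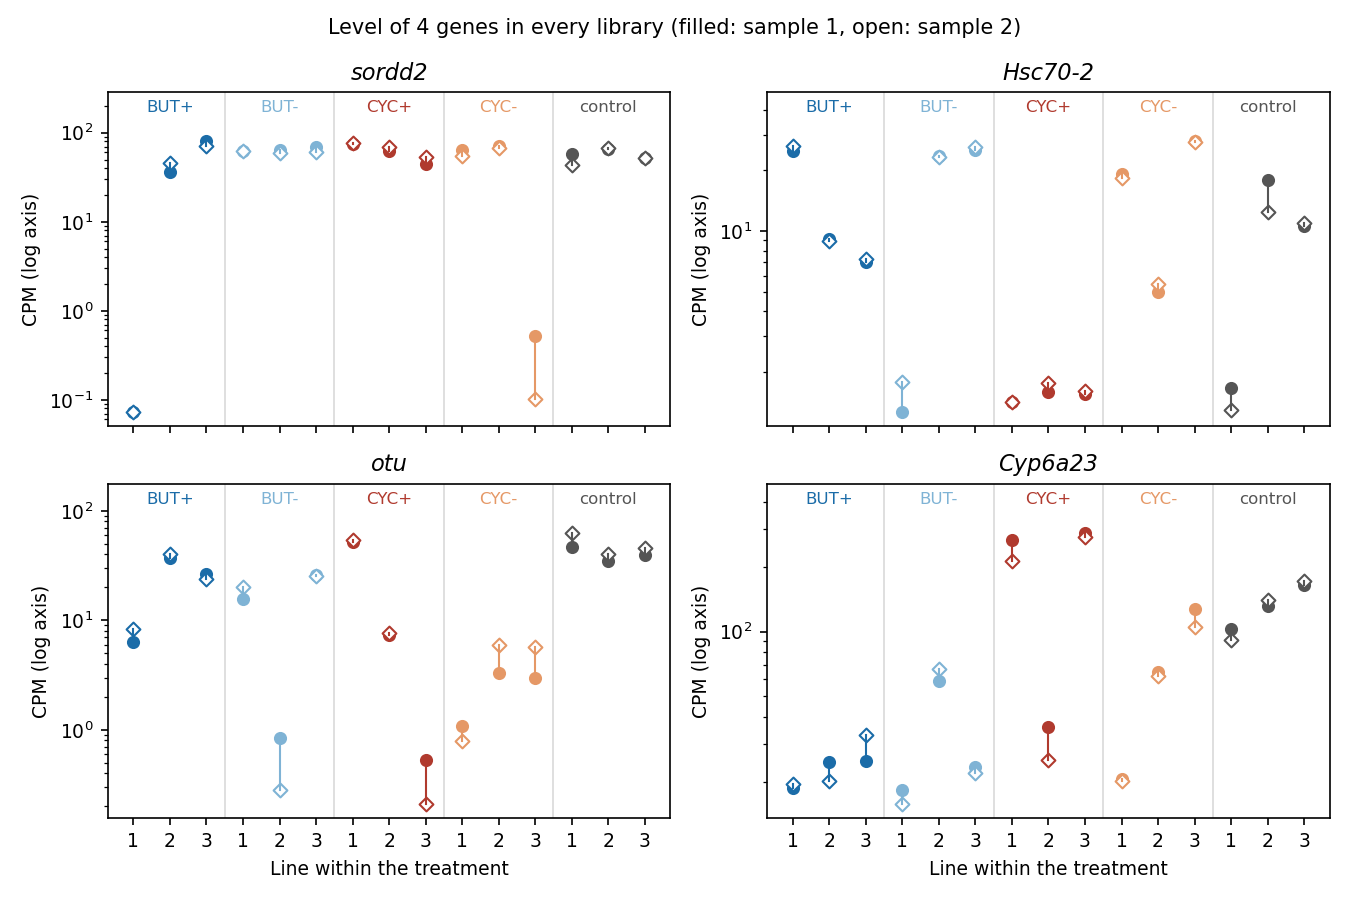
Level of sordd2, Hsc70-2, otu and Cyp6a23 in every library (y axis, CPM on a log axis; x axis, lines 1 to 3 of each treatment; filled circle, sample 1; open diamond, sample 2; the bar joins the samples of a line). sordd2 is near 0.07 CPM in BUT+ line 1 and at 0.103 and 0.518 CPM in CYC- line 3, and Hsc70-2 is under 2 CPM in BUT- line 1, all CYC+ lines and control line 1.

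Further genes named by their p-values had roles unlike one another. The serpin genes Spn42Dc and Spn42Db, neighbours on 2R that encode inhibitors of serine proteases, shared a pattern (r = 0.99). Spn42Dc was at 28.8 and 22.1 CPM in control line 1, 4.73 and 7.15 in line 2, and 3 and 4.08 in line 3 (span 2.86, SE 0.21, adjusted p = 2.85e-07, edgeR). It was also raised in CYC+ line 2 (15.5 and 15.6 CPM against 3.13 to 4.14 in its companions) and was low in all CYC- lines (2.83 to 4.04 CPM, not called). Spn42Db spanned 3.87 on the log2 scale in the control (SE 0.37, adjusted p = 7.74e-06, edgeR).
CG6254 was high in BUT+ line 1, at 26 and 28.1 CPM against 11.1 to 12.9 in lines 2 and 3 (span 1.18, SE 0.08, adjusted p = 6.12e-08, edgeR). The only other line above 15.2 CPM was control line 3, at 16.7 and 20.4 CPM. CG12268 was high in BUT- line 3, at 42.8 and 39.4 CPM against 9.16 to 13 in lines 1 and 2 (span 2.03, SE 0.14, adjusted p = 2.25e-08, edgeR). CG6834 was low in control line 1, at 13.5 and 7.28 CPM against 40.9 to 47.8 in lines 2 and 3, and in CYC- line 2, at 14.1 and 14.6 CPM against 32.2 to 87.1.

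Called differences could be small in size and yet sharply divided, as in CG3632, while those of Ssk and rdhB were wider. CG3632, listed in RefSeq with the synonym MTMR3/4 of the myotubularin phosphatases, had 2 levels. It was at 132 to 154 CPM in BUT- line 3, CYC+ line 3, CYC- line 2 and control line 3, and at 97.9 to 110 CPM in the other 11 lines, with no library in between. Its span in CYC+ was 0.61 (SE 0.05, adjusted p = 1.72e-06, edgeR). Ssk (snakeskin), a membrane protein of smooth septate junctions in the gut epithelium, was at 31 and 33.3 CPM in BUT+ line 1 and 11.8 to 16.6 CPM in BUT+ lines 2 and 3 (span 1.44, SE 0.10, adjusted p = 2.37e-07, edgeR). Midgut markers in the same treatment summed to 96.6 CPM in line 1 (59 and 134 in its samples), 61.7 in line 2 and 58.4 in line 3. Ssk was called in 4 treatments. In BUT-, CYC+ and the control its lowest line was line 2, at 7.79 to 8.63, 14.4 to 16.7 and 13 to 15.7 CPM. Midgut sums in lines 1, 2 and 3 were 92.6, 35.6 and 245 CPM in BUT- and 11.4, 64.9 and 32.4 in CYC+. In the control they were 104, 259 and 94.4 CPM. The part of midgut RNA in the Ssk differences was not tested.
rdhB, a retinol dehydrogenase of the visual pigment pathway, was called in CYC+ alone. It was at 212 and 181 CPM in line 1, 136 and 122 in line 2, and 83.2 and 91.1 in line 3 (span 1.16, SE 0.09, adjusted p = 1.72e-06, edgeR). Whether the CYC+ span differs from those of the other treatments was not tested.

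A pair of the named genes act in DNA repair. phr, the photolyase that reverses ultraviolet damage, was called in all 5 treatments. It was at 17.1 and 14.7 CPM in CYC+ line 2 against 2.29 to 3.86 in its companions (span 2.74, SE 0.18, adjusted p = 1.63e-08, edgeR), and at 11.4 and 8.8 CPM in CYC- line 1 against 2.85 to 3.68. Rrp1, an endonuclease of base excision repair, was at 34.2 and 27.1 CPM in CYC+ line 3, 21.5 and 22 in line 2, and 6.78 and 8.3 in line 1 (span 2.03, SE 0.13, adjusted p = 6.89e-08, edgeR). It was raised in BUT- lines 2 and 3 (15.2 to 25.5 CPM) and between 5.33 and 9.87 CPM in the lines of BUT+, CYC- and the control, among which BUT+ also passed (span 0.65, adjusted p = 0.0205, edgeR). Its neighbour gammaTub23C, a gamma tubulin, had an r of 0.93 with it and was called in BUT- and CYC+.

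Some genes differed among the lines of several treatments. Of the 9240 genes, 1447 were called in at least 1 treatment and 436 in at least 2. There were 1011 genes called in a single treatment, 270 in 2, 115 in 3, 36 in 4 and 15 in all 5. Of the 192 genes called in BUT+, 84 (43.8%) were also called in BUT-, 88 (45.8%) in CYC+, 77 (40.1%) in CYC- and 54 (28.1%) among the control lines, where 5.37%, 7.71%, 4.3% and 3.44% of all genes were called. Of the 318 genes called in the control, 54 (17%), 76 (23.9%), 103 (32.4%) and 87 (27.4%) were called in BUT+, BUT-, CYC+ and CYC-. The tests of the treatments use different libraries but share 1 estimate of spread per gene, and a gene with little spread is more easily called in each of them. Without the first sample of CYC+ line 1, 23 genes were called in all 5 treatments, and these include all 15.

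The 15 genes called in all 5 treatments include cuticle, detoxification and chaperone genes, and the line that was high changed from treatment to treatment. CG14567 (3L) was at 20.8 and 19.6 CPM in BUT- line 2 against 4.61 to 9.47 in its companions, and at 15.3 and 12.1 CPM in control line 3 against 4.09 to 6.1. Its spans ran from 0.90 in CYC- to 2.07 in BUT-. Cyp6a2, a P450 that metabolises insecticides, was at 49.9 and 47.2 CPM in BUT+ line 1, 174 and 190 in line 2 and 283 and 278 in line 3 (span 2.53, SE 0.21, adjusted p = 3.98e-06, edgeR). It was lowest in CYC- line 2, at 47.8 and 30.6 CPM. Cpr72Ec, a chitin-binding cuticle protein, was at 262 and 216 CPM in CYC+ line 1, 89.5 and 71.3 in line 2 and 115 and 129 in line 3 (span 1.57, SE 0.16, adjusted p = 1.37e-05, edgeR).
HIP-R, a co-chaperone related to the Hsc70-interacting protein, was at 35 and 26.1 CPM in CYC- line 1, 25.1 and 23 in line 2 and 5.11 and 4.58 in line 3 (span 2.66, SE 0.19, adjusted p = 3.25e-07, edgeR). HIP, which lies close by on the X and shares an older symbol with it, was called in BUT-, CYC- and the control, and reads common to both cannot be placed with certainty; HIP was named after its values were seen. Hel89B, an ATPase of the family that regulates TATA-binding protein, had spans between 0.37 in BUT- and 0.81 in CYC+. slow, a secreted protein of muscle attachment sites, spanned 0.37 in CYC- to 1.10 in CYC+. CG30054, which lies beside the G protein gene Galphaq, spanned 0.93 in CYC+ to 1.85 in BUT-, CG31704 1.15 in the control to 2.88 in BUT-, and CG11052 1.57 in BUT- to 3.26 in CYC+. The lowest level of CG11052 was in CYC+ line 1, with 2 and 11 counts.

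Genes of odor and taste detection were read against the 12.7% of all genes called over all treatments. Odorant receptors are the ion channels of olfactory neurons, and only 19 of their 61 genes in the files passed the expression minimum. Of these 19, 3 were called (15.8%), namely Or42a, Or63a and Or22b (the last named after its values were seen). Or42a, a receptor for fruit esters, was at 0.893 and 0.875 CPM in CYC+ line 1, 5.19 and 6.25 in line 2, and 1.31 and 1.23 in line 3. Line 2 was high, and the span was 2.71 (log2, SE 0.33, adjusted p = 3.26e-05, edgeR). In the control it was at 3.54 and 3.96, 1.67 and 3.18, and 7.23 and 8.81 CPM in lines 1, 2 and 3 (span 1.70, SE 0.29, adjusted p = 0.00625, edgeR). In BUT+, BUT- and CYC- it was between 2.31 and 7.15 CPM and did not pass the test. Or63a was low in BUT- line 3, at 3.37 and 4.56 CPM against 5.95 to 8.13 (span 0.88, SE 0.16, adjusted p = 0.0038, edgeR); without the first sample of that line the adjusted p was 0.115.
Ionotropic receptors, the other receptor family of the antenna, had 3 of 12 tested genes called (25%). Ir75a and Ir75b are adjacent acid receptors of the antenna, and their line means had an r of 0.91. Ir75b was at 0.934 and 0.825 CPM in CYC+ line 1 and 1.8 and 2.17 CPM in line 3 (span 1.19, SE 0.25, adjusted p = 0.0224, edgeR). Ir75a was at 3.19 and 2.7 CPM in CYC- line 2 and 5.76 and 5.24 in line 3 (span 0.90, SE 0.17, adjusted p = 0.0123, edgeR). The Ir75b call was lost without the second sample of CYC+ line 3 (adjusted p = 0.145) and with only the 6 CYC+ libraries (adjusted p = 0.199). The Ir75a call was lost without the second sample of CYC- line 2 (adjusted p = 0.101) or the first of line 3 (adjusted p = 0.127). Of 9 gustatory receptors tested, Gr61a, a sugar receptor, was called (11.1%), at 0.492 and 0.736 CPM in control line 2 and 1.14 to 1.29 CPM in lines 1 and 3 (adjusted p = 0.0901, edgeR). That call was lost under 28 of its 39 alternatives, with adjusted p up to 0.467.

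Odorant-binding proteins carry odorants through the fluid around the olfactory neurons, and 7 of 28 tested were called (25%). Obp19c was at 1.83 and 2.27 CPM in CYC+ line 1, 8.37 and 7.41 in line 2, and 2.72 and 3.85 in line 3 (span 1.92, SE 0.27, adjusted p = 0.00036, edgeR). Obp56h was at 26.9 and 25.7 CPM in control line 1, 43.1 and 37.5 in line 2, and 55.5 and 50 in line 3 (span 1.01, SE 0.15, adjusted p = 0.00247, edgeR). The unselected control lines thus spanned a 2.01-fold range of Obp56h. The antennal markers, at 1810 to 2660 CPM in sum, included no gene called over all treatments (edgeR, DESeq2 and voom; 0 of 5 at an unadjusted p under 0.05). In pooled heads, fewer cells of a type and less RNA per cell cannot be told apart.

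Among detoxification enzymes, the shares called lay above the 12.7% of all genes. Glutathione S-transferases, which attach glutathione to reactive compounds, had 16 of 30 tested genes called (53.3%), with 7 called in BUT+, 5 in BUT-, 11 in CYC+, 7 in CYC- and, for the control, 4. Of all genes, 2.08%, 5.37%, 7.71%, 4.3% and 3.44% were called in these treatments, in the same order. UDP-glycosyltransferases, which attach sugars to small lipophilic compounds, had 9 of 17 (52.9%). Cytochrome P450s, which oxidise hormones and toxins, had 20 of 71 (28.2%). The called genes in these families numbered 18, 10 and 29 without the first sample of CYC+ line 1, against 16.8% of all genes. Members of these families lie in clusters of close paralogs, so the counts within a family are not independent of each other. GstD3 was at 22.3 and 24 CPM in BUT+ line 1, 31 and 30.8 in line 2, and 47.6 and 42.1 in line 3 (span 0.96, SE 0.10, adjusted p = 8.01e-05, edgeR). GstE1, called in all 5 treatments, was at 64.8 and 55.5 CPM in CYC- line 1, 28 and 25.3 in line 2, and 40.9 and 47.2 in line 3 (span 1.17, SE 0.15, adjusted p = 0.000295, edgeR).
Ugt302K1 was at 3.6 and 4.3 CPM in BUT+ line 1, 1.66 and 1.69 in line 2, and 0.615 and 0.522 in line 3 (span 2.79, SE 0.26, adjusted p = 1.19e-05, edgeR). Ugt35E2, close by on 3R, went the other way in BUT+, at 2.42 and 1.34 CPM in line 1 and 8.35 to 10 CPM in lines 2 and 3 (span 2.35, SE 0.27, adjusted p = 8.01e-05, edgeR). In CYC+ and CYC- both genes were highest in line 3, though only Ugt35E2 was called in CYC+ and only Ugt302K1 in CYC-. In BUT- and the control their highest lines differed. Fat body is a main site of such enzymes. None of 6 head fat body markers was called by edgeR over all treatments (0 at an unadjusted p under 0.05, and 0 by DESeq2 and by voom). Within BUT- 3 of the 6 had an unadjusted edgeR p under 0.05, and within CYC+ 1 had. DESeq2 called 1 in CYC+, and edgeR and voom called 0 in any treatment. The markers summed to 85400, 75400 and 74900 CPM in BUT+ lines 1, 2 and 3. The sums were 45400, 68300 and 79500 CPM in those of BUT-, and 35600, 29700 and 22400 in those of CYC+. Over all libraries the sum ran from 17500 to 93700 CPM. The part of the fat body in these differences was not tested.

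P450 genes with known natural alleles were looked at one by one. Of 8 tested only Cyp6a23 was called by edgeR with all libraries in (12.5%, against 12.7% of all genes over all treatments). Cyp6g1, whose upstream insertions and duplications raise insecticide resistance in wild flies, was between 2120 and 4560 CPM in all libraries, with its widest span in BUT- (0.43, SE 0.17, adjusted p = 0.312, edgeR). The widest spans of Cyp6g2 and Cyp6a17 were 0.28 and 0.47, both in the control. At its widest, Cyp28d1 spanned 0.84 in BUT- and Cyp28d2 0.61 in CYC+. Cyp12d1-p and Cyp12d1-d, near-identical copies of each other, spanned 1.60 in BUT- and 2.84 in CYC+. Their libraries of 1 line disagreed (5.02 and 0.559 CPM of Cyp12d1-p in BUT- line 1), and neither passed (adjusted p = 0.218 and 0.133, edgeR). By DESeq2, Cyp12d1-d in CYC+ (adjusted p = 0.018) and Cyp28d1 in BUT- (adjusted p = 0.0386) did pass, as did Cyp12d1-d by voom (adjusted p = 0.0327). Over all treatments DESeq2 called 4 of the 8, against 1997 of all 9240 genes, and voom called 1. Without the first sample of CYC+ line 1, the share of the 8 called by edgeR over all treatments rose well above that of all genes. The share near that of all genes thus held only with that library in and by edgeR or voom.

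Cuticle, stress and immune genes gave further examples. Cuticle proteins had 12 of 29 tested genes called (41.4%). Cpr67B was at 212 and 215 CPM in BUT- line 1, 132 and 125 in line 2 and 116 and 120 in line 3 (span 0.86, SE 0.14, adjusted p = 0.000967, edgeR). Heat shock proteins had 4 of 9 called (44.4%), and the values behind them were uneven between pools. Hsp68 was at 25.8 and 11.4 CPM in the samples of control line 2 against 8.05 and 11.1 in line 1 (adjusted p = 0.0755, edgeR), and leaving out either library of line 1, either library of line 3 or the first of line 2 ended the call (adjusted p from 0.105 to 0.393). It was also lost without the block (0.321), by voom (0.155) and with only the 6 control libraries (0.325). Hsp26 was at 15.9 and 6.85 CPM in CYC- line 1, and without the first of these the call ended (adjusted p = 0.39, edgeR), as it did without the block (0.137) and with only the 6 CYC- libraries (0.115).
Peptidoglycan recognition proteins, sensors of bacterial cell walls, had 4 of 9 called (44.4%). PGRP-LA was at 54.5 and 51.7 CPM in BUT- line 3 and 41.3 to 45.8 CPM in lines 1 and 2 (span 0.33, SE 0.08, adjusted p = 0.0378, edgeR); without the first sample of line 3 or of line 2 the adjusted p was 0.337 or 0.111. PGRP-SD was called over all treatments (adjusted p = 0.0331, edgeR) and in none alone. Antimicrobial peptides had 5 of 20 called (25%). Drsl4, a drosomycin-like peptide gene, was at 20.3 and 20 CPM in BUT- line 1, 53.6 and 62.1 in line 2, and 110 and 112 in line 3 (span 2.46, SE 0.27, adjusted p = 5.66e-05, edgeR). Its neighbour Drsl5 followed it (r = 0.85) over a narrower range, 125 to 228 CPM in BUT- (span 0.81, SE 0.16, adjusted p = 0.0158, edgeR; 0.117 without the second sample of line 1).

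**Figure D3:**
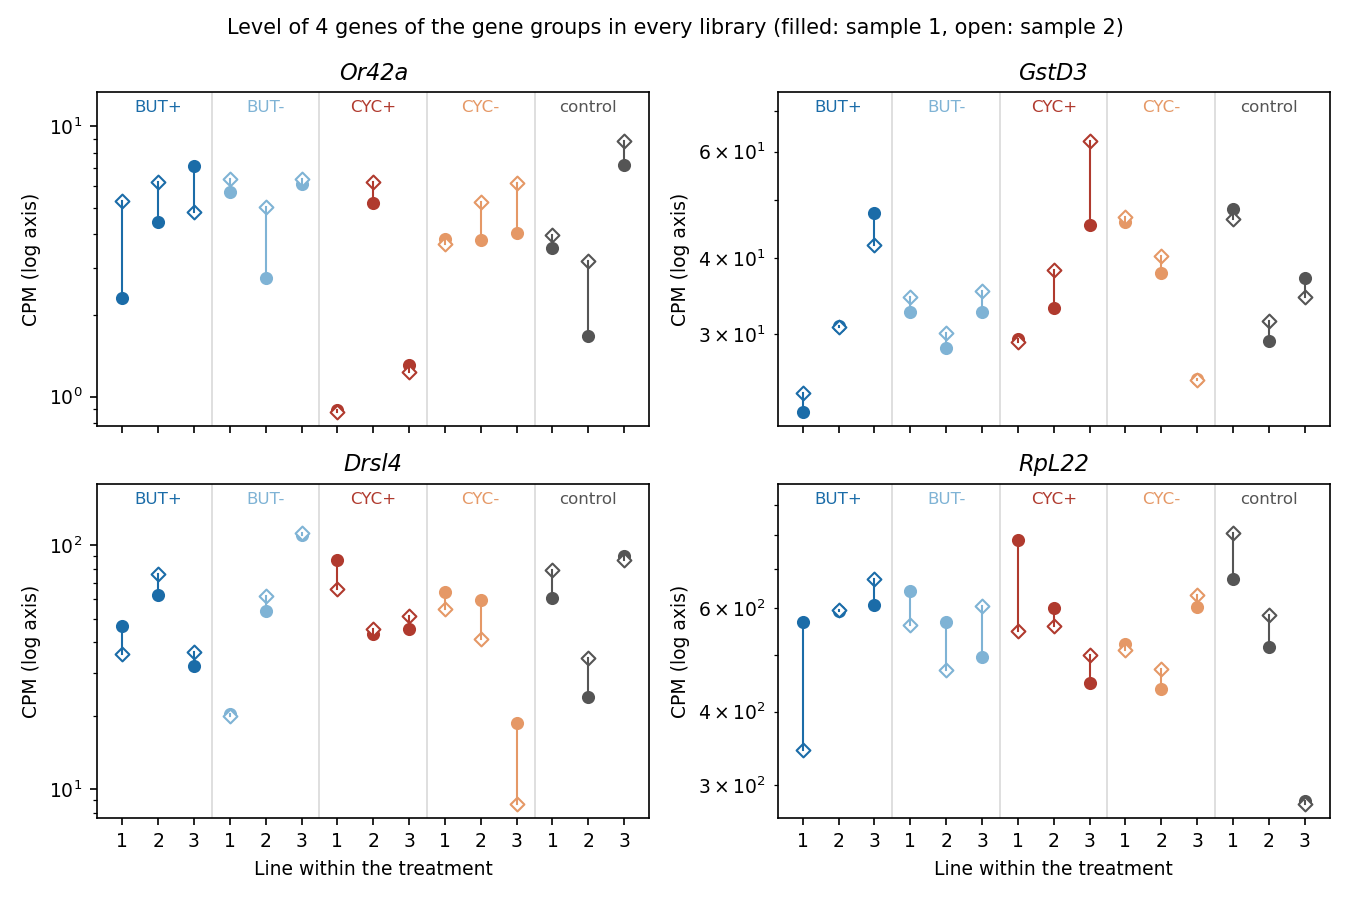
Level of Or42a, GstD3, Drsl4 and RpL22 in every library (y axis, CPM on a log axis; x axis, lines 1 to 3 of each treatment; filled circle, sample 1; open diamond, sample 2). Or42a is under 1 CPM in both samples of CYC+ line 1, and RpL22 is lowest in control line 3, at 282 and 278 CPM.

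The count of called ribosomal protein genes depended on 1 library. Of 83 tested, 3 were called over all treatments (3.61%; 14 by DESeq2), and by treatment 5 were called in the control and 0 in the other 4 (edgeR). Of all genes, edgeR called 12.7% over all treatments, 3.44% in the control and 2.08% to 7.71% in the other 4. In BUT- 8 had an unadjusted p under 0.05 and DESeq2 called 3, and in BUT+ 1 had such a p. RpL22, a protein of the large subunit, was at 672 and 805 CPM in control line 1, 516 and 584 in line 2, and 282 and 278 in line 3 (span 1.40, SE 0.19, adjusted p = 0.00104, edgeR). RpLP2 was at 620 and 502 CPM in control line 3 and at 911 to 1540 CPM in lines 1 and 2 (span 1.28, SE 0.23, adjusted p = 0.0109, edgeR; 0.109 without the second sample of line 3). Without the first sample of CYC+ line 1, in which the 83 genes summed to 108000 CPM against 60400 CPM in the second sample of that line, 55 of the 83 were called over all treatments (66.3%), 36 in the control, 18 in BUT-, 5 in BUT+, 1 in CYC+ and 0 in CYC-. The counts of all genes called in that same fit are those given per treatment above. The 83 genes summed to 85500 and 89600 CPM in control line 1, 82100 and 82400 in line 2, and 75300 and 60400 in line 3.

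Immunoglobulin-domain surface proteins of neurons (Dpr, DIP, Beat and Side) had 3 of 52 called (5.77%). dpr21 was called over all treatments only (adjusted p = 0.0457, edgeR). side-V had a span of 0.31 in BUT- (SE 0.07, adjusted p = 0.0536, edgeR), which was lost under 8 of 40 alternatives (adjusted p up to 0.499). Without the first sample of CYC+ line 1, the share of the 52 that was called lay close to that of all genes in the same fit. Clock genes had 1 of 9 called over all treatments by edgeR (11.1%), the repressor cwo. Its span of 0.36 in BUT+ did not pass there (adjusted p = 0.259, edgeR). DESeq2 called 4 of the 9 over all treatments, against 1997 of all 9240 genes, and voom called 1. In CYC+ edgeR, DESeq2 and voom each called 2 of the 9, where edgeR called 7.71% of all genes. cwo was not among the edgeR calls there, and those calls were lost without the first sample of CYC+ line 1.
Transcripts of the mitochondrial genome had 2 of 15 called (13.3%) over all treatments and 0 in any single treatment by edgeR, with 2 at an unadjusted p under 0.05 in BUT+ and 2 in BUT-. DESeq2 called 1 in BUT+ (mt:ND4L, adjusted p = 0.0554) and 2 in BUT-, among them mt:ND2 (adjusted p = 0.0468), and voom none. mt:ND2 was at 92.6 and 15 CPM in the samples of BUT- line 3, and mt:ND4L at 6.9 and 19.9 CPM in those of BUT+ line 1, so that the samples of those lines differed widely. Noncoding RNAs, a list by symbol that includes 15 pseudogenes among its 155 tested genes, had 30 called (19.4%), 4 of them pseudogenes. lncRNA:CR40469 was at 26.6 and 14.3 CPM in CYC+ line 1, 4.96 and 2.8 in line 2 and 17.6 and 19.1 in line 3 (span 2.39, SE 0.22, adjusted p = 3.01e-06, edgeR).
Digestive genes gave no calls over all treatments by edgeR: 0 of 6 Jonah and trypsin proteases (3 at an unadjusted p under 0.05) and 0 of 7 maltases and amylases (also 3). DESeq2 called 4 and 3 of them, and voom 0. The samples of a line disagreed for the proteases, whose 6 genes summed to 376 and 4.76 CPM in the samples of CYC- line 3.

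**Figure D4:**
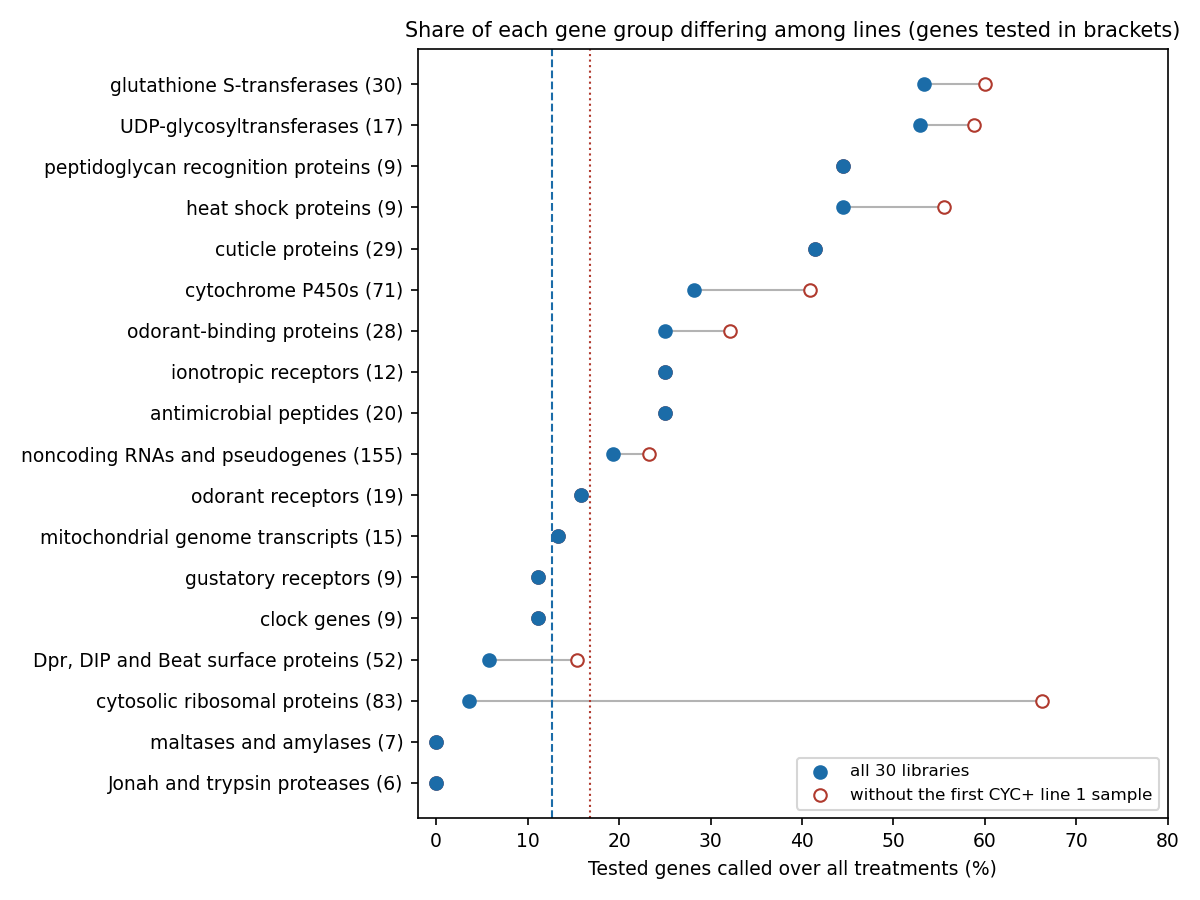
Share of the tested genes of each group that were called over all treatments (x axis, percent; number of genes tested in brackets), with all 30 libraries (filled) and without the first sample of CYC+ line 1 (open, hidden where both are equal). The dashed and dotted lines mark all genes, 12.7% and 16.8%; ribosomal protein genes move from 3.61% to 66.3% and the glutathione S-transferases from 53.3% to 60%.

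The position of called genes was described next. Among called genes with a position, those whose next tested gene on either side was also called made up 16.7% in BUT+, 25.6% in BUT-, 23.1% in CYC+, 15.8% in CYC- and, for the control, 10.5%. Among genes that were not called, the share with a called neighbour was 3.82%, 9.54%, 13.8%, 7.94% and 6.6% in the same order. Over all treatments it was 35.4% against 21.5%. These are descriptions, since neighbouring genes are not independent and overlapping genes can share reads.
The patterns of neighbours over the lines were compared too. Pairs of adjacent genes that were both called over all treatments had a median Pearson r of 0.23 over the 15 line means (233 pairs, 33% of them over 0.5), against 0.08 for all 9089 adjacent pairs. At 2 genes apart the median of called pairs was 0.05, and at 5 to 100 genes apart it was between -0.07 and 0.02.

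**Figure D5:**
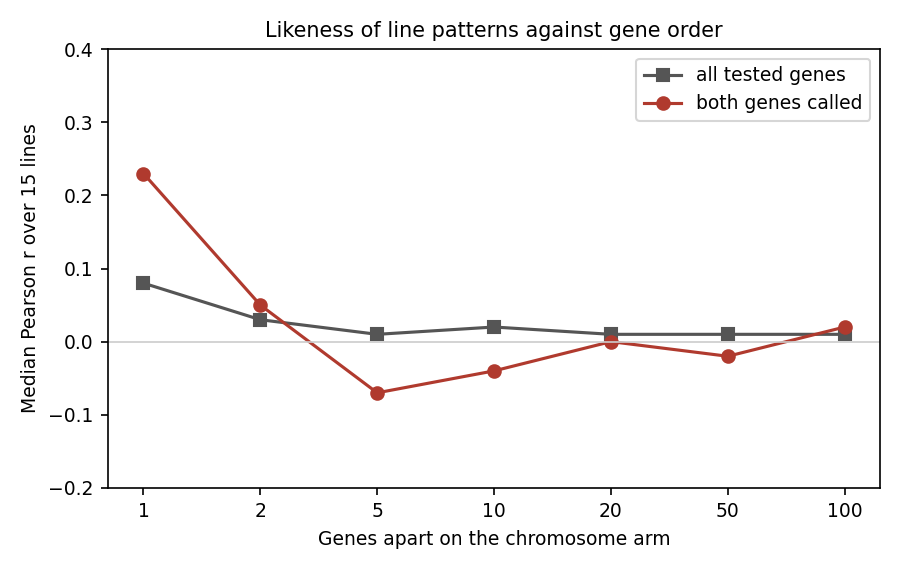
Median Pearson r of line means over 15 lines for pairs of tested genes (y axis) against how many places apart they lie in the order of genes along a chromosome arm (x axis, 1 is adjacent), for all tested genes and for pairs in which both were called over all treatments. Called pairs stand at 0.23 when adjacent and between -0.07 and 0.05 from 2 genes apart onward.

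The longest runs of adjacent called genes held 5 genes each, all in CYC+: NimB5, NimC1, Cyp28a5, NimC2 and rk on 2L, the glutathione S-transferases GstE3 to GstE7 on 2R, and CG18190, the juvenile hormone epoxide hydrolases Jheh1, Jheh2 and Jheh3, and CG43071 on 2R. Runs of 4 were CG11668, Hsc70-2, CG31157 and CG7966 on 3R, in BUT+ and in CYC-, and Hsc70-2, CG31157, CG7966 and pic in BUT-. The last was Hel89B, srp, pnr and Jhbp5 on 3R in BUT-. The genes of these runs outside the naming rule were named after their values were seen. NimC1, a receptor of blood cells, was the only gene on the marker lists of cell types that edgeR called over all treatments (adjusted p = 0.00393, edgeR). DESeq2 called 1 of 4 neuronal, 1 of 6 photoreceptor, 1 of 2 hemocyte, 2 of 2 glial and 5 of 7 tested midgut markers there. It called 1997 of all 9240 genes. Both glial markers had an unadjusted edgeR p under 0.05.

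The called genes were spread over the chromosomes. Over all treatments 12.3% of tested genes were called on 2L, 13.3% on 2R, 13.7% on 3L, 12.6% on 3R and 11.9% on the X. The small chromosome 4 had 3 of 82 genes called (3.66%), and 1 gene of it was called in each treatment.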

How the data were processed

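The deposited values are whole-number counts of reads per gene, 1 file per library, which the authors made from 100-base reads by removing adapters with Trim Galore!, trimming with Cutadapt and aligning to the fly genome, release 6, with STAR, without normalization. The counting tool, its use of strand and its handling of reads that match several genes are not given in the sources used here. Reads of paralogs and overlapping genes are uncertain for that reason. Groups, line and sample numbers came from the labels. Positions were looked up by gene identifier in an annotation of release 6, which held 17242 of the genes (98.7%).

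Genes with 1 CPM in 15 libraries were kept, library sizes were normalized by TMM, and 15 line means plus sample number were fitted to all 30 libraries with edgeR 4.0.16 in R 4.3.3 (14 residual degrees of freedom). Lines were compared within each treatment (2 degrees of freedom), over all treatments (10) and by pairs, with Benjamini-Hochberg adjustment over all genes, and calls at an adjusted p under 0.1. Standard errors were taken as the log2 difference over the square root of F. A span is the fitted log2 difference between the highest and the lowest line. CPM values in the text are TMM-normalized, and marker sums use total counts.

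Genes were named by rule: per treatment the 6 smallest p-values among called genes with 1 line clear of the other 4 libraries; the 8 smallest p-values over all treatments; up to 10 genes called in all 5 treatments; up to 2 called genes per list; and P450 genes with known natural alleles. The members and lists were chosen with earlier results of these data known. Alternatives were DESeq2 1.42.0, limma 3.58.1 (voom), other size factors, a robust fit, other filters and thresholds, fits of 6 libraries, other blocks and leaving out each library. The fit was tested on simulated data. Tables were made with Python 3.11.15 and plots with matplotlib 3.10.9. No sequences were used here.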

Additional observations from a re-analysis of the deposited data

Results flagged for a closer look

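A library that lay far from the other 5 of its treatment was looked for in the 70 pairs of a named gene and a treatment and in 50 pairs of a cell type marker list and a treatment. The limit is one that chance would pass in about 1 in 20 groups of 6 independent values. The 6 libraries of a treatment are 2 from each of 3 lines, and many genes were named for differences between lines. That rate therefore does not hold here, and the numbers found cannot be read against it. Of the named genes, Hsp26 was at 15.9 CPM in the first sample of CYC- line 1, against 4.32 to 6.85 CPM in the other CYC- libraries, and mt:ND4L was at 19.9 CPM in the second sample of BUT+ line 1, against 2.41 to 6.9 CPM.

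Marker lists gave 9 such libraries of 50 pairs. Neuronal markers summed to 1550 CPM in the first sample of CYC+ line 1 (2280 to 2530 CPM in the other CYC+ libraries) and to 2860 CPM in the second sample of BUT- line 1 (1950 to 2260 CPM in the other BUT- libraries). In the second sample of control line 2, photoreceptor markers summed to 69300 CPM (51900 to 56500 CPM in the other control libraries) and hemocyte markers to 283 CPM (379 to 411 CPM). Midgut markers summed to 408 CPM in the first sample of BUT- line 3 (21.9 to 99.7 CPM in the others) and to 415 CPM in the first sample of control line 2 (83.4 to 124 CPM in the others). Ovarian follicle markers summed to 28.6 CPM in the first sample of BUT+ line 1 (1.3 to 10.3 CPM in the others), to 14.7 CPM in the first sample of BUT- line 2 (0.928 to 3.91 CPM in the others) and to 10.2 CPM in the first sample of control line 3 (1.49 to 3.04 CPM in the others). The part of these libraries in the differences between lines was not tested beyond leaving each out in turn.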

How the results depend on the processing

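Counts of genes are given in the order BUT+, BUT-, CYC+, CYC- and control. Without the sample-number block the counts were 125, 284, 420, 252 and 201, 738 over all treatments, and 170, 343, 567, 328 and 238 genes in at least 1 pair of lines; every one of these calls among 3 lines was also made with the block. With a replicate block within each treatment, an alternative chosen after the data were seen, BUT- had 919, the control 550, and their pairs 1227 and 671. Sample numbers pair the libraries within CYC+ and within CYC- but not over all lines: the second-minus-first differences of lines had a mean correlation of 0.218, and 27 of 105 pairs were at or under 0.1 (0.493 to 0.738 within CYC+ and within CYC-, -0.0943 to 0.146 within the control). At an adjusted p under 0.05 the counts were 302, 402, 256 and 185 after BUT+, 770 over all treatments, and 390, 519, 276 and 204 in pairs. DESeq2 called 1997 over all treatments. Fits of only the 6 libraries of a treatment, with 2 residual degrees of freedom, gave 1229 in BUT+, 1115 in BUT-, 196 in CYC+ and, for the control, 80.

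Leaving out each library in turn gave 94 to 305, 181 to 838, 391 to 3179, 209 to 545 and 149 to 612 genes, 927 to 3173 over all treatments, and 104 to 370, 209 to 1215, 479 to 3968, 246 to 695 and 168 to 748 in pairs. The highest value of each came from leaving out a library of CYC+ line 1. Counts among 3 lines moved by over 1.5 times, each without 1 library, as follows. BUT+ had 101 or 94 without the first or second sample of its line 1, 120 or 126 without those of line 3, and 291 or 305 without those of CYC+ line 1. BUT- had 181 without the second sample of its line 1, 314 or 315 without those of line 2, 319 or 306 without those of line 3, and 838 or 808 without those of CYC+ line 1. CYC+ had 452 or 3179 without the samples of its line 1, 408 or 470 without those of line 2, and 391 or 404 without those of line 3. CYC- had 209 without the first sample of its line 1, 220 or 230 without those of line 2, and 214 without the first of line 3. The control had 185 or 149 without the samples of its line 1, 172 without the second of line 3, and 605 or 612 without those of CYC+ line 1. Leaving out a library also leaves its line with 1 library, which is then assumed to vary like the others. No named gene changed direction under any setting.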
